A study of Rattus norvegicus with 14 samples.

Results

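Blood mononuclear cells of arthritic rats were compared between the end of a course of needle stimulation and the time before any therapy. The arrays were taken by their titles, 3 of AP rats after 34 days of acupuncture therapy and 2 of RA rats before therapy, which makes 5 of the 14 arrays of the series. They are called here by the study's codes, MS_A for mechanical stimulation (MS) and CIA_B for collagen-induced arthritis (CIA) before therapy. All were female Wistar rats in which arthritis had been raised by immunisation with bovine type II collagen and adjuvant, followed by a booster, and their age is not given in the labels. MS_A rats were then treated with a short needle that was inserted and twirled at 4 points, on the lower back and below the knee of both sides, whereas CIA_B rats had no therapy. Rats were anaesthetised and killed when blood was drawn, so the groups hold different animals, and the labels do not say whether an array is 1 rat. Arthritic rats left unstimulated until day 34 are not among the groups, so stimulation cannot be told apart from the passage of time, including the course of the disease itself. The other 9 arrays (arthritic rats given stimulation with methotrexate, MTXMS_A, healthy rats after the same stimulation, NOCIAMS_A, and healthy rats before it, NOCIA_B, 3 of each) entered the estimate of the spread, and the healthy groups are compared at the end.

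Mononuclear cells are the lymphocytes and monocytes of blood, collected from the layer that forms above a density gradient, and this layer also carries platelets and some young red cells. T cells, B cells and monocytes take part in arthritis as sources of antibody help, antibody and inflammatory cytokines. Platelets have no nucleus but keep RNA from the megakaryocytes that shed them, and they take part in clotting, in wound repair and in inflammation of the joint.

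The markers of the labelled cell type were found on all 5 arrays. Signals (MAS5 intensity, an arbitrary linear unit) of the T cell receptor chain Cd3e were 4311 to 5122 in MS_A and 5691 to 6752 in CIA_B, those of the B cell protein Ms4a1 were 2803 to 5220.1 in MS_A and 2503 to 3010.0 in CIA_B, and those of the monocyte receptor Cd14 were 3242 to 9198 in MS_A and 2342 to 2776 in CIA_B. RNA of other cells of blood was abundant too. The platelet chemokine Pf4 lay between 39232 and 53441 in MS_A and between 33174 and 48749 in CIA_B, the haemoglobin chain Hbb between 30574 and 35293 in MS_A and between 35595 and 38815 in CIA_B, and the granulocyte protein S100a8 between 6887 and 21636 in MS_A and between 12449 and 13108 in CIA_B. In such bulk samples fewer cells of a type cannot be told apart from less RNA per cell. Median signals of the 5 arrays were 104 to 131. As a measure of RNA quality, ratios of 3′ to 5′ actin signal were 2.44 to 2.69 in MS_A and 2.77 and 2.83 in CIA_B, without overlap. The same ratio of Gapdh overlapped, with 1.00 to 1.18 in MS_A and 1.03 on both CIA_B arrays. The 3′ signal of Gapdh, which is a level, was 17498 to 24223 in MS_A and 10186 and 15042 in CIA_B, without overlap. The part of these measures in the results was not tested. Outside the compared groups NOCIA_B replicate 3 and MTXMS_A replicate 3 stood apart, with mean correlations to the other arrays of 0.855 and 0.882 against 0.912 to 0.934 for the rest. Among the compared arrays MS_A replicate 1 lay closest to CIA_B, with a correlation of 0.947 to CIA_B replicate 2.

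No single probe set (the group of probes that reads 1 transcript) passed limma's test after Benjamini-Hochberg adjustment over the 18515 tested (0%, lowest adjusted p = 0.616). At an unadjusted p of 0.05 there were 1450 (7.83%), where chance gives 926, and without moderation of the spread 0 passed the adjustment. At the thresholds of the study, an unadjusted p of 0.05 with a difference of at least 2-fold, 475 probe sets were higher (2.57%) and 195 lower (1.05%) in MS_A. Genes named below had an adjusted p of 0.616 to 0.963 (limma), so their values describe these arrays and none is a call after adjustment. Signals of the 2 groups did not overlap for 3004 probe sets that were higher in MS_A (16.2%) and 3645 that were lower (19.7%). With groups of 3 and 2, an exact permutation test of a single gene could not go below p = 0.2.

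Genes that ranked first on the higher side had varied roles. Ciita, the coactivator that switches on genes of MHC class II, had 307, 334 and 399.9 in MS_A replicates 1, 2 and 3, against 108 and 87.5 in CIA_B replicates 1 and 2. Each MS_A array lay above both CIA_B arrays, and the log2 difference (MS_A minus CIA_B, here and below, with its standard error) was 1.83 ± 0.37. Its other probe set had 815, 851 and 966 against 442 and 414, a difference of 1.03 ± 0.34. In the list of MHC class II genes, which holds Ciita and the genes it is known to drive, 3 of 8 were above 0 and the median was -0.12 (-0.33 to 0.25 when each array was left out). Lmna, which encodes the A-type lamins of the nuclear envelope, had 329.8, 532 and 664 in MS_A and 30.2 and 114 in CIA_B, a difference of 3.06 ± 0.71, and its brighter probe set had 0.70. For Lmna the CIA_B arrays differed between themselves by more than the gap to MS_A.

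Other genes of this ranking act on matrix, oxygen sensing or metabolism. Loxl3, an enzyme that crosslinks collagen and elastin, had 211, 296 and 476 in MS_A and 89.8 and 107 in CIA_B (1.66 ± 0.40). Dag1, the laminin receptor dystroglycan, had 188, 227 and 274 in MS_A and 113 and 109 in CIA_B (1.04 ± 0.26), with the pair of CIA_B arrays almost equal. Egln3, a prolyl hydroxylase that marks hypoxia-inducible factors for destruction, had 467, 709 and 790.4 in MS_A and 198 and 199 in CIA_B. For each of the 3 genes MS_A replicate 1 lay lowest and replicate 3 highest. Among metabolic genes, Slc25a13, the mitochondrial carrier of aspartate and glutamate, had 955, 839.8 and 1290.1 in MS_A and 439 and 245 in CIA_B (1.62 ± 0.34), and Ddah1, which breaks down an inhibitor of nitric oxide synthases, had 134, 254 and 260.5 in MS_A and 65.5 and 51.4 in CIA_B. Adgrg1, an adhesion receptor known from human cytotoxic lymphocytes, had 189.6, 411 and 156 in MS_A and 67.1 and 37.0 in CIA_B, and here replicate 2 stood out. The other genes of the 15 were Gcn1, an activator of the amino acid starvation response (2.55 ± 0.66), the calcium exchanger Slc24a4 (2.04 ± 0.50), the tRNA methyltransferase Thumpd3 (1.22 ± 0.28), the RNA-binding protein Rbpms (1.01 ± 0.29), Uap1l1 (1.02 ± 0.27), Dennd2c, which is described with the Rab genes, and Epor, which is described with the red cell genes.

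Genes leading in the opposite direction had differences of -1.87 to -1.09 on the log2 scale, beside 1.01 to 3.06 for the 15 higher ones. Mnt, a repressor that competes with Myc for their shared partner, had 2849, 2196 and 2413 in MS_A and 6974 and 4385 in CIA_B, a difference of -1.16 ± 0.28. Ing3, a subunit of a histone acetyltransferase complex, had 709.7, 547 and 840.3 in MS_A and 1628 and 1524 in CIA_B (-1.19 ± 0.35). Sart3, which recycles spliceosomal particles, had 1116, 596 and 853 in MS_A and 2206 and 1759 in CIA_B (-1.25 ± 0.40). For none of the 3 genes did the groups overlap, and MS_A replicate 2 was lowest in each. The zinc finger proteins Zik1 (-1.25 ± 0.29) and Zfp819 (-1.30 ± 0.41) and the formin-binding protein Fnbp4 (-1.28 ± 0.39) were lower as well.

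Others act in metabolism and membrane traffic. Phgdh, the first enzyme of serine synthesis from glycolysis, had 1143, 926 and 727 in MS_A and 1993 and 1920.0 in CIA_B (-1.09 ± 0.34), and Plekha8, a carrier of glycolipids, had 268, 128 and 115 in MS_A and 431 and 615 in CIA_B (-1.71 ± 0.45). Both other probe sets of Plekha8 were lower by at least 2-fold, at -1.70 and -1.09. Scrn1, a gene of regulated exocytosis, had 566, 185 and 272 in MS_A and 983 and 1277 in CIA_B (-1.87 ± 0.56), with MS_A replicate 1 between the other MS_A arrays and CIA_B. The palmitoyltransferase Zdhhc17 (-1.09 ± 0.32) and Dcaf17, a substrate adaptor of a ubiquitin ligase (-1.11 ± 0.30), were lower too. So was Tmsb10-ps5, a pseudogene whose probes may also read its parent gene (-1.15 ± 0.32). This side included 4 genes that had another probe set above 0. Ing3 had 0.04 in a dimmer probe set, Prkaa1, a catalytic subunit of AMP-activated kinase, had -1.17 ± 0.33 here and 0.07 in a brighter probe set, the Golgi protein Acbd3 had -1.25 ± 0.36 here and -0.07 and 0.02 in its others, and the integrin activator Rap1b had -1.38 ± 0.33 here and 0.34 in a probe set that is much brighter. Of the 15 lower genes 8 had 11 other probe sets, of which 7 were also below 0 and 3 were lower by at least 2-fold. Smaller differences were found in other probe sets of Dcaf17 (-0.20), Scrn1 (-0.78) and Fnbp4 (-0.27, beside -2.21 in a dim one). Of the 15 higher genes 8 had 9 others, of which 7 were also above 0 and 2 were higher by at least 2-fold, those of Ciita and Epor, while that of Gcn1 had -0.30. Other probe sets of Rbpms (0.10), Slc25a13 (0.40), Dag1 (0.60) and Thumpd3 (0.76) differed less than the ranked ones.

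**Figure D1:**
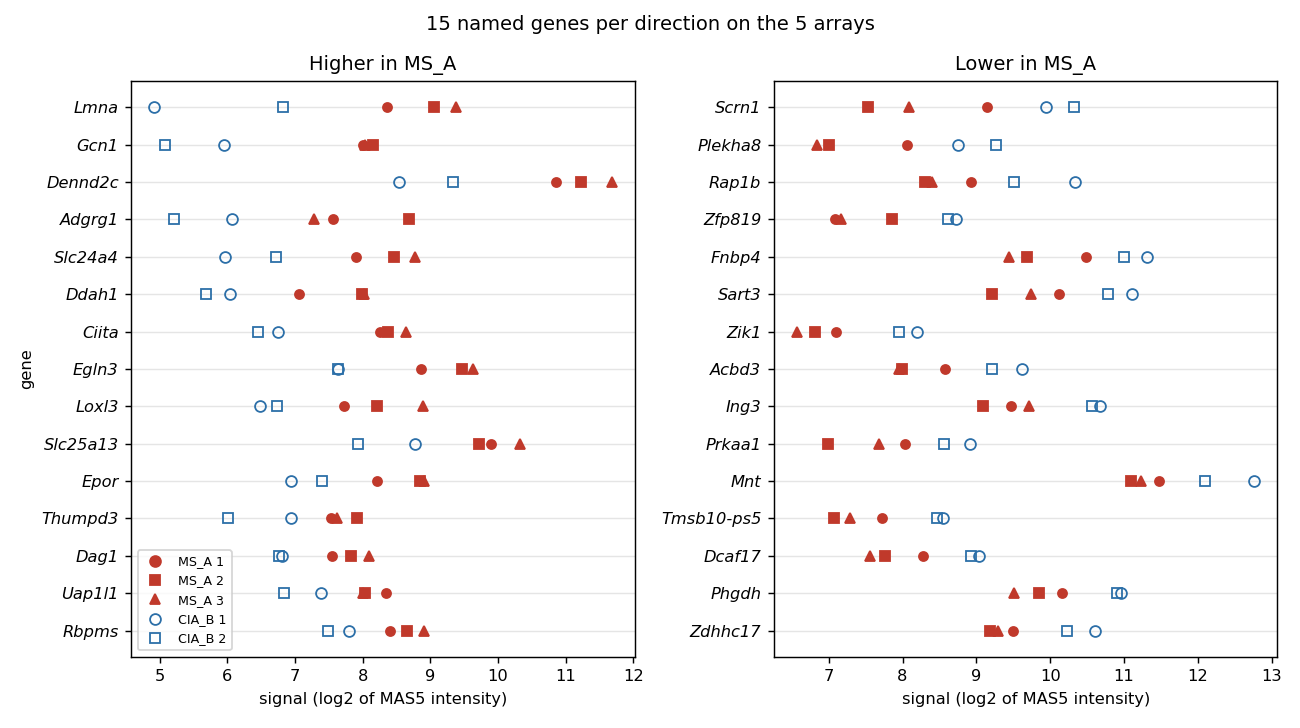
Signal (log2 of MAS5 intensity, horizontal axes) of the 15 best-ranked genes per direction, 1 row per gene; filled red symbols are MS_A replicates 1, 2 and 3 and open blue symbols are CIA_B replicates 1 and 2. The groups do not overlap in any row because the choice of genes required it, and the differences run from 1.01 to 3.06 on the left and from -1.87 to -1.09 on the right.

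Platelet genes were higher in MS_A as a group. Of 24 markers tested 22 were above 0, with a median log2 difference of 1.33, beside 0.01 over all 10107 genes (1 probe set each) and 5159 of them above 0. At the thresholds of the study 6 markers were higher (2.48% of all genes were) and 0 lower (0.643% of all genes were), and 21 were higher without overlap (17.5% of all genes were). Gng11, a G protein subunit abundant in megakaryocytes, had 18966, 24076 and 24092 in MS_A and 6036 and 11714 in CIA_B (1.40 ± 0.62). Treml1, a receptor of platelet granules, had 13909, 18582 and 24312 in MS_A and 4885 and 7897 in CIA_B (1.57 ± 0.69). Rgs18, a brake on G protein signalling in platelets, had 12514, 17429 and 18418 in MS_A and 5956 and 7355 in CIA_B (1.26 ± 0.53). In each of the 3 genes all MS_A arrays lay above both CIA_B arrays, CIA_B replicate 1 was lowest and MS_A replicate 1 was the lowest of its group. The chemokine Ppbp had 2933, 5968 and 5914 in MS_A and 1254 and 1941 in CIA_B, the von Willebrand factor receptor chain Gp9 had 4589, 5627 and 9878 in MS_A and 1384 and 2754 in CIA_B, and the ADP receptor P2ry12 had 2125, 2877 and 5505 in MS_A and 939.8 and 1079 in CIA_B. Their order within MS_A was not the same, since Ppbp was alike on replicates 2 and 3 and the others were highest on replicate 3.

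Some of the brightest members differed less. Pf4 had 53441, 52320.1 and 39232 in MS_A and 33174 and 48749 in CIA_B, so that the groups overlapped (0.25 ± 0.34), and the platelet tubulin Tubb1 had 32633, 35471 and 28247 in MS_A and 17654 and 27406 in CIA_B (0.54 ± 0.39). Both had their highest MS_A signal on an array other than replicate 3. The fibrinogen receptor chains Itga2b (0.91 ± 0.57) and Itgb3 (0.95 ± 0.47), the platelet receptor Clec1b (0.56 ± 0.34) and the granule protein Mmrn1 (1.44 ± 0.68) were higher without overlap and missed the thresholds. Selp, the selectin of platelet granules, went the other way with 269.8, 191 and 313 in MS_A and 427 and 418 in CIA_B (-0.74 ± 0.98), and was the single marker lower without overlap. The platelet median was between 1.02 and 1.58 when each of the 5 arrays was left out. Summed signal of the list was 294325 to 394270 in MS_A and 160135 to 219631 in CIA_B.

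Red cell genes were higher too, but far less evenly. Of 19 markers tested 18 were above 0 with a median of 1.13. At the thresholds 2 were higher, Epor and Rhag (2.48% of all genes were). Higher without overlap were 6 (31.6%, against 17.5% of all genes). Epor, the erythropoietin receptor, had 297, 459 and 478 in MS_A and 123 and 169 in CIA_B (1.48 ± 0.41), and Rhag, a channel of the red cell membrane, had 447, 851 and 784 in MS_A and 208 and 252 in CIA_B (1.55 ± 0.65). A second probe set of Epor had 1.69 and a dim further one -0.54. The transcription factors of the red cell and megakaryocyte lines ran with them: Tal1 had 7205, 9109 and 13984 in MS_A and 3105 and 4282 in CIA_B, Nfe2 had 8583, 12074 and 13361 in MS_A and 3589.9 and 5271 in CIA_B, and Gata1 had 342, 538 and 464 in MS_A and 127 and 302 in CIA_B. These 3 factors, which platelets and red cells share, did not overlap between the groups. Alas2 and Kel, products of later red cells, overlapped. Alas2, the first enzyme of haem synthesis in red cells, had 21171, 27266 and 5515 in MS_A and 6225 and 21298 in CIA_B (0.35 ± 2.09), and Kel, a blood group protein, had 3978, 4138 and 413 in MS_A and 497 and 923 in CIA_B (1.48 ± 1.62). MS_A replicate 3 was low for both, under CIA_B replicate 1. Hbb was slightly lower without overlap, with 30574, 35293 and 31266 in MS_A and 38815 and 35595 in CIA_B (-0.20 ± 0.95, and 0.10 with the replicate number as a block), and the embryonic chain Hbe1 higher, with 342, 419.6 and 364 in MS_A and 176 and 157 in CIA_B (1.17 ± 0.55). The erythroid median was between 0.48 (without CIA_B replicate 1) and 1.69 (without CIA_B replicate 2), and summed signal was 105539 to 223439 in MS_A and 80393 to 151875 in CIA_B.

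Since Gata1 and its partners were among the higher genes, the promoters of both lists were searched for AGATAA, a sequence that GATA factors are known to bind, on either strand (AGATAA or TTATCT) in the 250 bases before the start of transcription (RefSeq, assembly GRCr8). Of the 17 platelet genes with a promoter 4 held it (23.5%), of the 14 erythroid genes 4 (28.6%), and of all 33469 promoters 10.3%. Among the members at the thresholds, those of Rgs18 and Epor held it, while Ppbp, Gp9, Treml1, Gng11 and Rhag had no match to it in this window. Only this 1 form was searched and marked. Variants of the sequence were not, so a promoter without a match may still hold a site for GATA factors. P2ry12 was not searched. Both matches are on the other strand, and these promoters are shown because they hold the match, so they do not stand for their lists. They lie at chr13:59066343-59066592 and chr8:28770323-28770572, both genes on the minus strand, with the match in capitals 90 and 114 bases before the start.
Rgs18: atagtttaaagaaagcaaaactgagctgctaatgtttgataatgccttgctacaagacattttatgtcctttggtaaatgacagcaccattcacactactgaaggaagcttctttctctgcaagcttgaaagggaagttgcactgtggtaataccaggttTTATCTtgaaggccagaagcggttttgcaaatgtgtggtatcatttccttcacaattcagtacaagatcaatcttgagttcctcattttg
Epor: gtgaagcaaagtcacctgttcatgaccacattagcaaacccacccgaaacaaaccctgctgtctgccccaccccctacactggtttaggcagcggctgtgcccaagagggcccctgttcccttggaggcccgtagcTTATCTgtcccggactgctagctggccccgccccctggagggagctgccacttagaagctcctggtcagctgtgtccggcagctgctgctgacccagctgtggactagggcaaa

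T cell genes leaned lower. Of 22 markers tested 14 were below 0, with a median of -0.30, and 8 were lower without overlap (19.6% of all genes were). These 8 were the receptor complex members Cd3d, Cd3e, Cd3g and Cd247, the coreceptor Cd8a, the adhesion molecule Cd2, the costimulatory receptor Cd28 and the transcription factor Lef1. Lef1, a factor of naive T cells, had 6265, 2663 and 4719.7 in MS_A and 9012 and 9338 in CIA_B, and its second probe set had -1.01. Cd8a had 5683, 6892 and 4511 in MS_A and 8558 and 9497 in CIA_B (-0.68 ± 0.30), with -0.49 and -0.53 in its other probe sets. Cd2 had 3233, 3228 and 3204 in MS_A and 5002 and 4308 in CIA_B (-0.53 ± 0.23), the MS_A arrays being almost equal. Cd3g had 13425, 11612 and 10015 in MS_A and 14848 and 17605 in CIA_B (-0.48 ± 0.25), and Cd247 had 7416, 4741 and 5165 in MS_A and 8416 and 9861 in CIA_B (-0.69 ± 0.36). Cd4, which marks helper T cells, had 154, 152 and 88.7 in MS_A and 60.6 and 20.1 in CIA_B (1.87 ± 0.78), signals that lie around the median of the arrays or under it, and with Gata3, a factor of helper T cells at 965, 1229 and 1691 in MS_A and 703 and 846 in CIA_B (0.71 ± 0.38), it was higher without overlap. The T cell median was -0.02 without CIA_B replicate 2 and -0.37 to -0.25 without each of the others. Over these arrays the platelet median was 1.33, and whether the T cell shift goes with the share of platelet RNA was not tested.

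Receptors through which T cells are instructed were lower beside them. Of 14 genes of costimulation and cytokine reception 11 were below 0, with a median of -0.37. Lower without overlap were 4 (28.6%, against 19.6% of all genes). Il4r, the receptor of interleukin 4, had 3739.8, 2011 and 1914 in MS_A and 6525 and 6259 in CIA_B (-1.39 ± 0.57), with all MS_A arrays well under both CIA_B arrays. Icos, a costimulatory receptor of helper T cells, had 1841, 2064 and 1796 in MS_A and 2563 and 2417 in CIA_B (-0.39 ± 0.26), and the signal transducer Stat4 had 1498, 1686 and 1605 in MS_A and 1934 and 2077 in CIA_B (-0.33 ± 0.25). The inhibitory receptor Ctla4 had 195, 337 and 332 in MS_A and 338 and 405 in CIA_B (-0.40 ± 0.37), where MS_A replicate 1 was far under the rest and the others just under CIA_B. Stat5a was the single member higher without overlap (0.11 ± 0.18). The chemokine receptor Cxcr4, which holds lymphocytes in marrow and tissue, had 18641, 11993 and 10514 in MS_A and 21369 and 19252 in CIA_B (-0.61 ± 0.31), and its other probe sets had -0.75 and -0.84. The list median stayed between -0.37 and -0.23 when each array was left out.

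**Figure D2:**
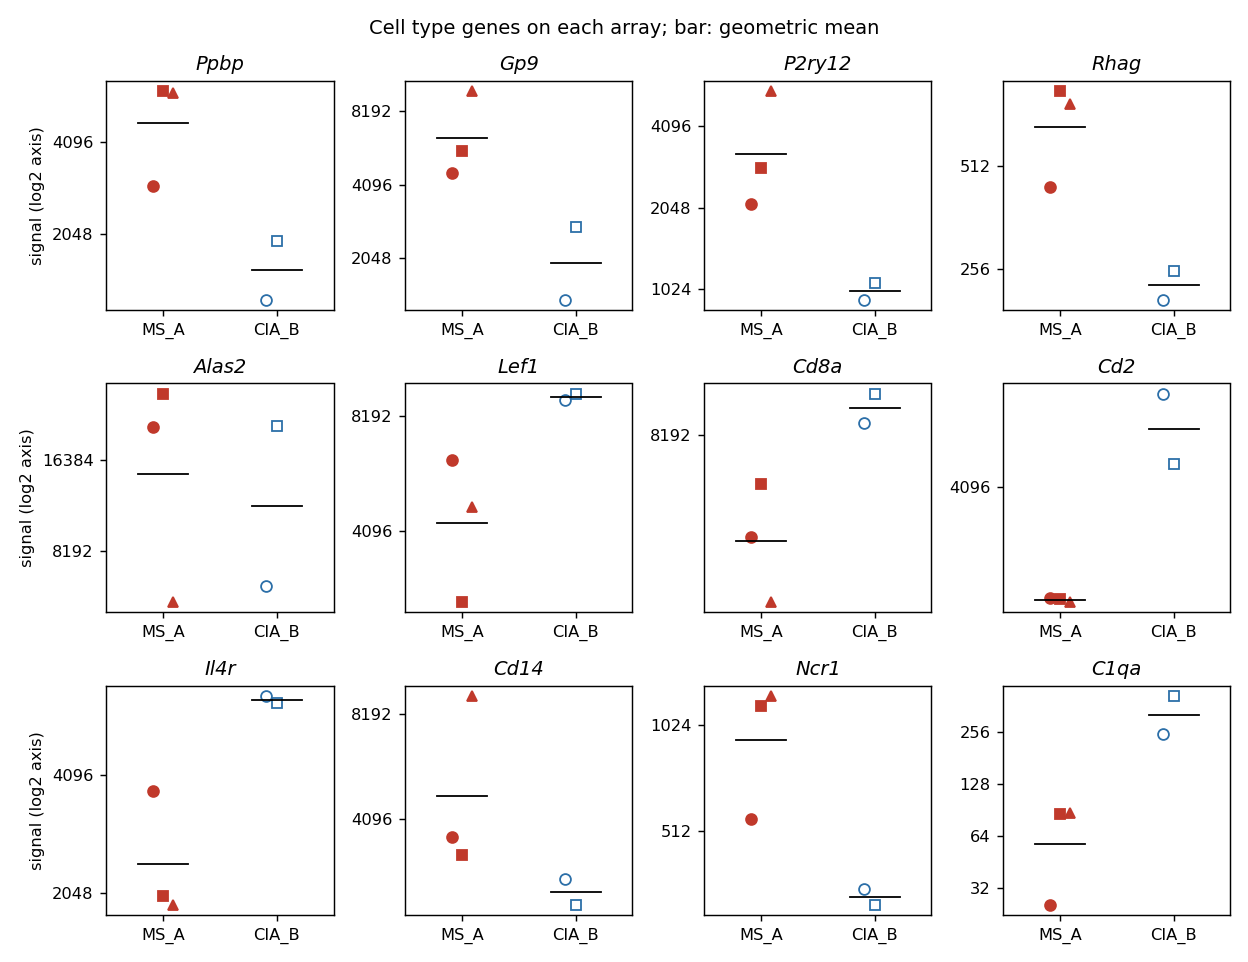
Signal (MAS5 intensity, log2 axes that differ between panels) of 12 cell type genes, MS_A on the left (filled red) and CIA_B on the right (open blue), with 1 symbol shape per replicate number and a bar at the geometric mean. Groups are apart for the platelet genes Ppbp, Gp9 and P2ry12 and for Lef1, Cd8a, Cd2 and Il4r, and they overlap for Alas2.

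Medians of monocyte, B cell and cytotoxic cell genes were above 0, with values that moved with single arrays. Of 18 monocyte markers 15 were above 0 (median 0.42), with 0 at the thresholds. Higher without overlap were 7 (38.9%, against 17.5% of all genes). Csf1r, the receptor that keeps monocytes alive, had 2990.2, 4506 and 4344 in MS_A and 2316 and 2397 in CIA_B (0.72 ± 0.41). Cd14, the coreceptor for endotoxin, had 3650.1, 3242 and 9198 in MS_A and 2776 and 2342 in CIA_B (0.91 ± 0.78), and the lectin Clec4a3 had 3140.5, 4379 and 7593 in MS_A and 2506 and 2124 in CIA_B (1.03 ± 0.67). For Cd14 and Clec4a3 most of the difference came from MS_A replicate 3, and the monocyte median was 0.19 without that array and 0.66 without CIA_B replicate 1. Among 14 B cell markers 11 were above 0 (median 0.45), and 3 were higher without overlap (21.4%, near the 17.5% of all genes), while the median was 0.23 without CIA_B replicate 2 and 0.75 without MS_A replicate 3. The 3 were Cr2, the complement receptor of B cells, with 1721, 1434 and 1078 in MS_A and 772 and 638 in CIA_B (0.98 ± 0.46), the coactivator Pou2af1 with 2156, 2209 and 1514 in MS_A and 1208 and 932 in CIA_B (0.86 ± 0.39), and the adaptor Stap1 (0.54 ± 0.27). The surface protein Ms4a1 overlapped (0.54 ± 0.48). Of 23 natural killer (NK) and cytotoxic genes 14 were above 0 (median 0.28, with -0.03 without MS_A replicate 2 and 0.63 without MS_A replicate 1), and 1 was higher without overlap (4.35%, under the 17.5% of all genes). That gene was Ncr1, an activating receptor of NK cells, which had 555, 1161 and 1235 in MS_A and 350.2 and 317 in CIA_B (1.48 ± 0.61). The chemokine Xcl1, with 96.3, 1299 and 174 in MS_A and 98.7 and 16.2 in CIA_B, rested on MS_A replicate 2 and overlapped, and the pore protein Prf1, with 6013, 12428 and 11589.7 in MS_A and 6376 and 6754 in CIA_B, was high on replicates 2 and 3 while replicate 1 lay under both CIA_B arrays.

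All 3 chains of C1q, the recognition molecule of complement that macrophages secrete, were lower without overlap while other members of their list were higher. C1qa had 25.8, 86.0 and 86.6 in MS_A and 248 and 409 in CIA_B (-2.46 ± 1.24), C1qb had 7.29, 116 and 68.3 in MS_A and 214 and 305 in CIA_B (-2.72 ± 1.87), and C1qc had 9.47, 21.4 and 44.6 in MS_A and 155 and 179 in CIA_B (-3.00 ± 1.37). On the MS_A arrays each of these signals lay under the median of its array. The list of Fc receptors and complement as a whole had 7 of 12 genes above 0 and a median of 0.32 (0.11 without MS_A replicate 3). Lower without overlap were 3 of the 12 (25%, near the 19.6% of all genes) and higher 5 (41.7%, against 17.5% of all genes). Ccl24, a chemokine of alternatively activated macrophages and eosinophils, was the gene with the largest negative difference of all tested, with 8.85, 91.4 and 162 in MS_A and 783 and 848 in CIA_B (-4.00 ± 2.43). It did not reach the thresholds.

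Integrins and selectins, by which blood cells hold on to each other, to vessels and to matrix, were above 0 in 15 of 21 genes, with a median of 0.49. Higher without overlap were 11 (52.4%, against 17.5% of all genes) and lower 3 (14.3%, under the 19.6% of all genes). At the thresholds 3 were higher (2.48% of all genes were): Itgal, Itgav and Itga9. Itgav, which pairs with several beta chains to bind vitronectin and fibronectin, had 1124, 1270.1 and 2055 in MS_A and 634 and 633 in CIA_B (1.18 ± 0.47, with -0.07 and -0.09 in dimmer probe sets). Itga9 had 24.5, 142 and 108 in MS_A and 7.65 and 21.8 in CIA_B, values near or under the array median. Itga6, a laminin receptor chain, had 8458, 12244 and 15648 in MS_A and 5189 and 5393 in CIA_B (1.15 ± 0.62), its partner Itgb1 had 12454, 17802 and 18334 in MS_A and 9612 and 9626 in CIA_B (0.73 ± 0.44), and Pecam1, the junction molecule of endothelium, platelets and leukocytes, had 961, 1019 and 826 in MS_A and 469.7 and 685 in CIA_B (0.72 ± 0.30). For these 3 the CIA_B arrays lay below every MS_A array. Lower without overlap were Selp, Itgb5 (-1.33 ± 0.86) and Itgae, the chain of lymphocytes that lodge in epithelium, with 425, 319 and 336 in MS_A and 605 and 549 in CIA_B (-0.69 ± 0.27). Without the 3 members that are also platelet markers the list median was 0.41.

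Itgal, the alpha chain of the leukocyte integrin LFA-1, differed more than any other probe set tested. Its signals were 7899, 12112 and 13697 in MS_A and 75.7 and 82.2 in CIA_B, a log2 difference of 7.12 ± 2.52 (139-fold). The probe set was either high or low on every one of the 14 arrays. Outside the pair of groups it was high on MTXMS_A replicate 2 (4782), NOCIAMS_A replicate 1 (6027) and NOCIA_B replicate 3 (9678), and at 33.8 to 109 on the remaining 6 arrays. The high state was thus found in 3 of 3 MS_A arrays, 0 of 2 CIA_B arrays and 1 of 3 arrays of each other group, including healthy rats without stimulation. In a fit of the 5 compared arrays alone, which leaves out the spread within the other groups, the standard error was 0.29 and Itgal was the single probe set that passed (limma, adjusted p = 0.0116).

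**Figure D3:**
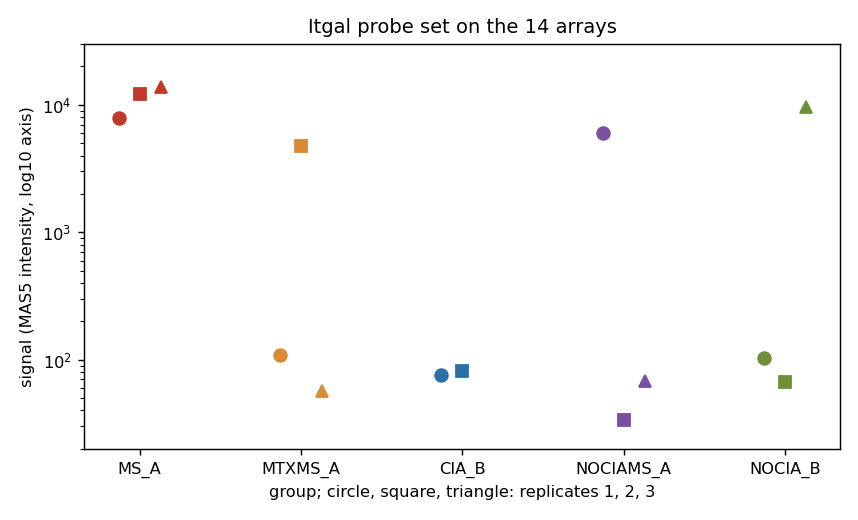
Signal of the Itgal probe set (MAS5 intensity, log10 axis) on each of the 14 arrays by group, with 1 symbol shape per replicate number. All MS_A arrays lie between 7899 and 13697 and both CIA_B arrays under 100, while each of the other groups has 1 high and 2 low arrays.

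Single genes of actin and focal adhesion, through which cells hold on and answer force, were higher as well. Cald1, which binds actin and myosin, had 1789, 2408 and 3494 in MS_A and 579.7 and 777 in CIA_B, and its second probe set had 1.31. Src, the kinase at the head of adhesion signalling, had 426, 325 and 510.2 in MS_A and 219.8 and 224 in CIA_B (0.90 ± 0.29). Rac1, the GTPase of membrane ruffles, had 15954, 21520.2 and 22519 in MS_A and 9118 and 10903 in CIA_B (0.99 ± 0.53). For all 3 the groups were apart. Rhoa, the GTPase of stress fibres, had 6729, 7251 and 8228 in MS_A and 5887 and 6654 in CIA_B (0.24 ± 0.20), which was small beside Rhoc, its close relative, with 205, 267 and 185 in MS_A and 89.2 and 124 in CIA_B (1.04 ± 0.39). The focal adhesion proteins Vcl (1.20 ± 0.68) and Zyx (0.95 ± 0.55) and the tropomyosin Tpm1 (1.04 ± 0.55), parts of the actin cytoskeleton of platelets as of other cells, were higher without overlap. The focal adhesion kinase Ptk2 had 417, 468 and 300.4 in MS_A and 212 and 187 in CIA_B (0.96 ± 0.35).

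Genes of Rab GTPases, which direct vesicles, included Dennd2c, one of the 15 best-ranked higher genes. Dennd2c, an exchange factor of Rab GTPases, had 1852, 2390.5 and 3286 in MS_A and 371 and 647 in CIA_B. Rab27b, which moves granules to the membrane of platelets, had 4169, 5376 and 9488 in MS_A and 1740.0 and 1896 in CIA_B (1.72 ± 0.82), and Rab26 had 209, 294 and 409.9 in MS_A and 75.6 and 156 in CIA_B (1.43 ± 0.54), in a family with 33 of 50 above 0 and a median of 0.16. The Rab list was drawn up after the values were seen.

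Matrix and clotting genes were higher beside the platelet genes. Of 22 genes of matrix and its proteolysis 16 were above 0 (median 0.37, and 0.15 without CIA_B replicate 2). The thresholds were reached by 4, all higher (2.48% of all genes were). Timp3, an inhibitor of metalloproteinases that is bound to matrix, had 965, 1580.3 and 3225 in MS_A and 475 and 526 in CIA_B (1.77 ± 0.79, with 1.34 and 1.56 in its other probe sets). The protease inhibitor Serpine2 had 98.1, 107 and 193 in MS_A and 39.6 and 29.7 in CIA_B, the plasminogen activator inhibitor Serpinb2 had 62.3, 54.2 and 285 in MS_A and 17.0 and 7.37 in CIA_B (3.14 ± 1.36), and the thrombospondin Thbs2 had 58.9, 70.5 and 26.0 in MS_A and 10.3 and 11.5 in CIA_B (2.13 ± 0.88). The last pair stayed under the array median on all arrays but 1, MS_A replicate 3 for Serpinb2. Of 12 coagulation genes 10 were above 0, with a median of 0.95, and 0.79 over the 9 that are not on the platelet list. Higher without overlap were 5 of the 12 (41.7%, against 17.5% of all genes). Of the 9 it was 2 (22.2%, near the share of all genes). Factor V (F5) had 17465, 19666 and 29153 in MS_A and 9123 and 10842 in CIA_B (1.12 ± 0.53), the clot-crosslinking F13a1 had 9191, 12708 and 18945 in MS_A and 4405 and 5327 in CIA_B (1.43 ± 0.69), and the thrombin receptor F2rl2 had 1535, 1685 and 2149 in MS_A and 331 and 935 in CIA_B (1.67 ± 0.81). F5 and F13a1 are on the platelet list too.

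Adenosine and purinergic genes, by which cells answer ATP and its breakdown products, were above 0 in 17 of 25. Their median was 0.38 (0.20 without MS_A replicate 3), and 4 were higher at the thresholds (2.48% of all genes were). P2rx1, the ATP-gated channel of platelets, had 1539.9, 2591 and 4489.6 in MS_A and 684 and 1093 in CIA_B (1.60 ± 0.72, with 1.80 in its other probe set), and the ADP receptor P2ry1 had 192, 228 and 352 in MS_A and 131 and 99.8 in CIA_B (1.12 ± 0.57). Panx1, the channel that lets ATP out, had 309, 399.9 and 449 in MS_A and 212 and 169.6 in CIA_B, and Slc29a3, a nucleoside transporter, had 187, 228 and 219 in MS_A and 158 and 73.0 in CIA_B (0.97 ± 0.33, with 0.42 without CIA_B replicate 2 and 1.53 without CIA_B replicate 1). The adenosine receptor Adora1 overlapped, with 82.7, 128 and 71.0 in MS_A and 73.3 and 12.5 in CIA_B (1.59 ± 0.72, and 0.31 without CIA_B replicate 2). The ectoenzymes Entpd1, which degrades ATP on lymphocytes, with 33.5, 70.4 and 23.9 in MS_A and 74.1 and 104 in CIA_B (-1.20 ± 0.67), and Enpp3 (-0.66 ± 0.83) were lower without overlap. Panx1 differed in the same direction as P2rx1, P2ry1 and P2ry12, which are all platelet genes.

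Genes of oxygen sensing and glycolysis were found on both sides. Of 29 genes 18 were above 0 (median 0.31, and 0.10 without CIA_B replicate 2). Higher without overlap were 9 (31%, against 17.5% of all genes) and lower 3 (10.3%, under the 19.6% of all genes). The 9 included the glycolytic enzymes Hk1 with 357, 522 and 507 in MS_A and 246 and 306 in CIA_B (0.73 ± 0.29), Aldoa (0.58 ± 0.34), Ldha (0.41 ± 0.31) and Pgk1 (0.31 ± 0.23). Hif1a, the oxygen-regulated factor that drives them, was lower, with 9935, 8451 and 5655 in MS_A and 11571 and 14251 in CIA_B (-0.72 ± 0.30), as were 2 of the hydroxylases that restrain it, Egln1 (-0.31 ± 0.24) and Egln2 (-0.35 ± 0.30), while Egln3, described above, was higher. Hif1a was lowest on MS_A replicate 3, and replicate 1 lay nearest to CIA_B. Sod2, the manganese superoxide dismutase of mitochondria, had 14126, 15673 and 17924 in MS_A and 5519 and 7740.2 in CIA_B (1.28 ± 0.44).

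Clock genes were below 0 in 12 of 18, with a median of -0.10 (-0.28 without CIA_B replicate 2 and -0.19 to -0.13 without each other array). Lower without overlap were 7 (38.9%, against 19.6% of all genes) and higher 0 (17.5% of all genes were). Rora, a nuclear receptor that activates the clock gene Bmal1, had 855, 1009 and 424 in MS_A and 2759 and 1736 in CIA_B (-1.61 ± 0.59). Nr1d2, a repressor of the same target, had 3566, 2146 and 1538 in MS_A and 5112 and 4399 in CIA_B (-1.06 ± 0.45), and its other probe sets had -1.15 and -1.31. The groups of both genes were well apart, with MS_A replicate 3 lowest. Cry2 had 961, 599 and 535 in MS_A and 1113 and 1291 in CIA_B (-0.83 ± 0.39), Clock had 447, 452 and 460.1 in MS_A and 744 and 612 in CIA_B (-0.57 ± 0.30, and 0.02 in its other probe set), Per3 had -0.99 ± 0.70, Cry1 -0.53 ± 0.37 and Bmal1 -0.22 ± 0.29. The hour of sampling is not given in the labels. The glucocorticoid receptor Nr3c1 (-0.38 ± 0.32) and the kinase Sgk1, which glucocorticoids induce (-0.56 ± 0.32), were lower without overlap, in a list of glucocorticoid response with 8 of 11 below 0 and a median of -0.28 (-0.49 without MS_A replicate 1). Fkbp5, which glucocorticoids induce as well, had 0.88 and 1.34 in its probe sets.

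Genes of the nucleus and of protein turnover were lower by small amounts in large numbers. Of 139 splicing factors and RNA helicases 114 were below 0, with a median of -0.32. Lower without overlap were 66 (47.5%, against 19.6% of all genes) and higher 8 (5.76%, against 17.5% of all genes). Ddx20, a helicase of snRNP assembly, had 716, 509 and 609.7 in MS_A and 1363 and 1025 in CIA_B (-0.96 ± 0.40). Prpf3, a part of the U4/U6 particle, had 954, 797 and 819.6 in MS_A and 1423 and 1274 in CIA_B (-0.66 ± 0.26), and Rbm25, a regulator of splice site choice, had 1886, 1366 and 1738 in MS_A and 2638 and 2387 in CIA_B (-0.61 ± 0.23). All 3 were apart by less than 2-fold, and Rbm48 (-1.18 ± 0.44) was the single member past the thresholds. Numbered zinc finger proteins were below 0 in 112 of 168 (median -0.15). At the thresholds 4 were lower (0.643% of all genes were). They were Zfp819, Zfp146 (-1.07 ± 0.37), Zfp12 (-1.18 ± 0.54, and -0.54 without MS_A replicate 1) and Zfp330 with 3726, 2587 and 3377 in MS_A and 7406 and 5880.1 in CIA_B (-1.05 ± 0.38). Zfp710 was the single one on the higher side (1.04 ± 0.31). Zfp3 was lower by less than 2-fold, with 323, 293 and 201 in MS_A and 471 and 511 in CIA_B (-0.88 ± 0.23). Splicing and zinc finger lists were drawn up after the values were seen. On the same arrays the genes of platelets, which have no nucleus, were higher (median 1.33), and their part in the splicing result was not tested.

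Of 43 cytosolic ribosomal proteins 41 were below 0, yet by a median of -0.12 (-0.02 without MS_A replicate 3 and -0.04 without CIA_B replicate 2). Lower without overlap were 6 (14%, under the 19.6% of all genes) and higher 2 (4.65%, under the 17.5% of all genes), with 0 at the thresholds. Mitochondrial ribosomal proteins were below 0 in 47 of 70 (median -0.13), with 25 lower without overlap (35.7%, against 19.6% of all genes). Mrps31 had 495, 261 and 439.7 in MS_A and 984 and 683 in CIA_B (-1.09 ± 0.43) and was the single member at the thresholds, and Mrps9 had 877, 821 and 727 in MS_A and 1337 and 1413 in CIA_B (-0.77 ± 0.31). Proteasome subunits were below 0 in 29 of 36 (median -0.17). Lower without overlap were 14 (38.9%, against 19.6% of all genes) and higher 1 (2.78%, under the 17.5% of all genes). By contrast, genes of oxidative phosphorylation were balanced, with 32 of 71 above 0 and a median of -0.03. Among cell cycle genes the median was -0.01 (-0.22 to 0.24 when each array was left out). Of the 21 tested 4 were lower without overlap (19%, near the 19.6% of all genes). Mcm2, a helicase subunit that licenses DNA replication, had 729, 762 and 617 in MS_A and 1219 and 1079 in CIA_B (-0.71 ± 0.28). The subunits Mcm4 (-0.71 ± 0.34), Mcm6 (-0.59 ± 0.44) and Mcm7 (-0.50 ± 0.27) were lower without overlap as well.

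The study's own gene lists were described in the same way. The authors expanded the gene ontology lists from public terms and compiled the others by hand from published or web sources. All were chosen for wound repair and inflammation, and this choice is not independent of the study's reading of stimulation. The gene ontology lists of wound healing (whGO), response to wounding (rwGO) and inflammation (InflGO) had 138 of 206, 249 of 394 and 174 of 286 genes above 0, with medians of 0.25, 0.19 and 0.17. At the thresholds they held 14, 25 and 16 higher genes (2.48% of all genes were) and 0, 2 and 3 lower ones (0.643% of all genes were). Without platelet and erythroid markers 191, 379 and 282 genes were left, with medians of 0.20, 0.17 and 0.16. Epithelial-mesenchymal transition (EMT) had 111 of 172 above 0 (median 0.16) and its wound repair type (EMT.T2) 33 of 50 (median 0.30). Early mechanotransduction (Mec. E.) had 15 of 25 above 0 (median 0.16), and early healing (Heal E.) 25 of 55 (median -0.04). The last median was close to 0 and without a steady sign, at -0.029 to 0.076 when each array was left out. In early healing 13 genes were higher without overlap (23.6%, against 17.5% of all genes) and 6 lower (10.9%, under the 19.6% of all genes).

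Genes of these lists that were apart between the groups came from several functions. Ubash3b, a phosphatase of platelets and T cells, had 3529, 3779 and 5050.0 in MS_A and 1639 and 1809.8 in CIA_B, and the peptidase Cpq had 362, 449 and 641 in MS_A and 129 and 189.5 in CIA_B (1.59 ± 0.49). Casp12, an inflammatory caspase, had 121, 116 and 70.1 in MS_A and 27.3 and 29.2 in CIA_B, a difference of 1.82 ± 0.34 at signals near the array median or under it. Cxcl6, a chemokine for neutrophils, had 213, 222 and 283 in MS_A and 12.2 and 113 in CIA_B (2.68 ± 0.76), and the elastase Cela1 had 804, 744 and 1218 in MS_A and 91.7 and 343 in CIA_B (2.34 ± 0.74), both with CIA_B replicate 1 far under replicate 2. Tlr2, the receptor for bacterial lipoproteins, had 2123, 2003 and 2609 in MS_A and 1266 and 737 in CIA_B (1.21 ± 0.50). At the study's thresholds the lower genes of the inflammation list were Il4r, Rora and Nr1d2, and that of EMT was Igf1r, the receptor of insulin-like growth factor, with 1046, 575 and 690.4 in MS_A and 1593 and 1753 in CIA_B (-1.16 ± 0.50). Of the transcription factors of EMT, Zeb1 was lower, with 1865, 1619.9 and 1051 in MS_A and 2899 and 2766 in CIA_B (-0.95 ± 0.44), and its relative Zeb2 higher, with 736, 917 and 2032 in MS_A and 573 and 459 in CIA_B (1.11 ± 0.73), neither with overlap, though another probe set of Zeb2 had -0.23.

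Of 9 genes that the study follows one by one 6 were above 0, and 4 were higher without overlap (44.4%, against 17.5% of all genes): Src, Rac1, Rhoa and Fos. Their median was 0.16, and -0.22 without CIA_B replicate 2. The study measured Fos, Wnt5b and Gjb2 in cultured synovial cells given rat serum. It measured Adora2a, Ada and S100a8 with S100a9 as proteins in serum, taken before therapy and partway through it. RNA of blood mononuclear cells after the full course is another material and time, so the values here do not check those measurements. The calprotectin chains S100a8 and S100a9, alarm proteins of neutrophils and monocytes, overlapped: S100a8 had 8162, 6887 and 21636 in MS_A and 12449 and 13108 in CIA_B (-0.26 ± 0.67), and S100a9 had 18082, 13422 and 31844 in MS_A and 23567 and 24045 in CIA_B (-0.27 ± 0.49). MS_A replicate 3 was above both CIA_B arrays for each and the other MS_A arrays below them. The adenosine receptor Adora2a had 659, 659 and 647 in MS_A and 761 and 452 in CIA_B (0.16 ± 0.45), adenosine deaminase (Ada) 477, 359 and 734 in MS_A and 684 and 581 in CIA_B (-0.33 ± 0.34), and the gap junction protein Gjb2 3455, 2954 and 1994 in MS_A and 3313 and 1808 in CIA_B (0.16 ± 0.63). The immediate early factor Fos had 5779, 6911 and 11723 in MS_A and 5022 and 3470.2 in CIA_B (0.90 ± 0.63), apart but with 0.03 in its other probe set. Wnt5b, with 21.2, 46.2 and 4.16 in MS_A and 14.1 and 4.52 in CIA_B, was under the filter on every array and was not tested.

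**Figure D4:**
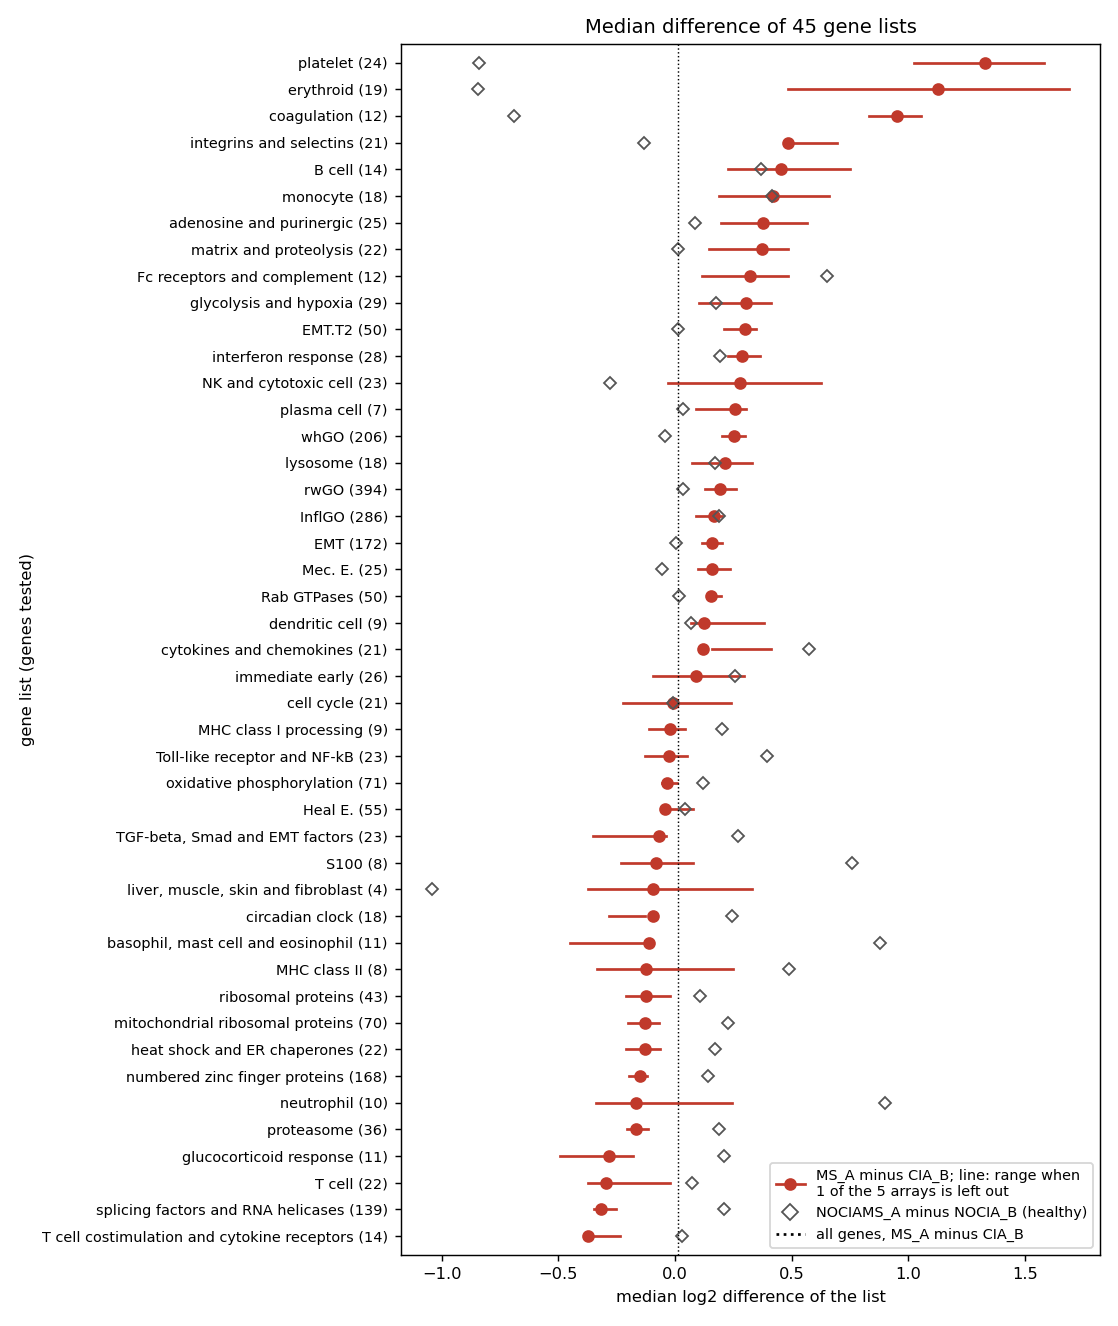
Median log2 difference (horizontal axis) of 45 gene lists (vertical axis, with the number of genes tested); red points are MS_A minus CIA_B, red lines the range when 1 of the 5 arrays is left out, open diamonds the same medians in healthy rats (NOCIAMS_A minus NOCIA_B), and the dotted line the median of all genes, 0.01. Platelet (1.33), erythroid (1.13) and coagulation genes (0.95) lie farthest to the right, with healthy medians of -0.84, -0.85 and -0.69 (-0.41, -0.0040 and -0.51 without NOCIA_B replicate 3), and costimulation genes (-0.37) and splicing factors (-0.32) farthest to the left.

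The 2 healthy groups had the same interval and the same needle treatment without arthritis, and share no array with MS_A and CIA_B. Differences there had mostly the opposite sign, and much of this rested on NOCIA_B replicate 3, the array that stood apart, which the single gene values include. Of the 475 probe sets higher in MS_A 356 (74.9%) had the opposite sign in healthy rats, with medians of 1.51 in arthritic and -0.60 in healthy rats, and of the 195 lower ones 167 (85.6%), with medians of -1.18 in arthritic and 0.40 in healthy rats. Over all probe sets tested 65.1% had opposite signs. Without NOCIA_B replicate 3 the counts were 319 of 475 (67.2%, healthy median -0.28) and 126 of 195 (64.6%, healthy median 0.13), beside 52.6% over all probe sets. Platelet markers had medians of 1.33 in arthritic and -0.84 in healthy rats, erythroid markers 1.13 in arthritic and -0.85 in healthy rats, and splicing factors -0.32 in arthritic and 0.21 in healthy rats. Without NOCIA_B replicate 3 the healthy medians were -0.41 for platelet, -0.0040 for erythroid and 0.06 for splicing genes. That array had 3′ Gapdh signal of 44971 and an actin ratio of 1.97, whose part was not tested. Mean platelet levels, as deviations from the mean of the series, were -0.34, -0.52 and -0.10 in NOCIAMS_A and -0.67, 0.88 and 1.18 in NOCIA_B, where replicate 1 lay below all NOCIAMS_A arrays. The test of the difference between both changes called no probe set after adjustment (limma, 0%, lowest adjusted p = 0.360), with 2423 at an unadjusted p of 0.05 (13.1%) and 0 after adjustment without moderation. The count after adjustment was 1651 with array weights and 980 without NOCIA_B replicate 1. Since MS_A and CIA_B values enter both the choice of these genes and this test, the values for single genes are descriptions.

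Epor had -1.13 ± 0.36 in healthy rats, so that the arthritic minus the healthy change was 2.61 ± 0.55. Dennd2c had -1.63 ± 0.56 there and a difference between changes of 3.94 ± 0.85, and Loxl3 -0.99 ± 0.36 and 2.65 ± 0.54. The lower gene Zfp819 had 1.14 ± 0.37 in healthy rats, a difference of -2.44 ± 0.55. Among platelet genes Ppbp had -1.34 ± 0.56 and Rgs18 -1.21 ± 0.47 in healthy rats. Some genes did not turn, among them Dag1, Uap1l1 and Rbpms of the 15 higher genes. Rhoc had 1.04 ± 0.39 in arthritic rats and 1.01 ± 0.35 in healthy rats, with a difference of 0.03 ± 0.52, Uap1l1 had 0.47 ± 0.24 and Casp12 0.54 ± 0.31 in healthy rats, and monocyte markers had medians of 0.42 in both (0.51 in healthy rats without NOCIA_B replicate 3, and 0.08 without NOCIA_B replicate 1). Of the 30 best-ranked genes 12 of the 15 higher and 15 of the 15 lower had the opposite sign in healthy rats, and 11 and 12 without NOCIA_B replicate 3.

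**Figure D5:**
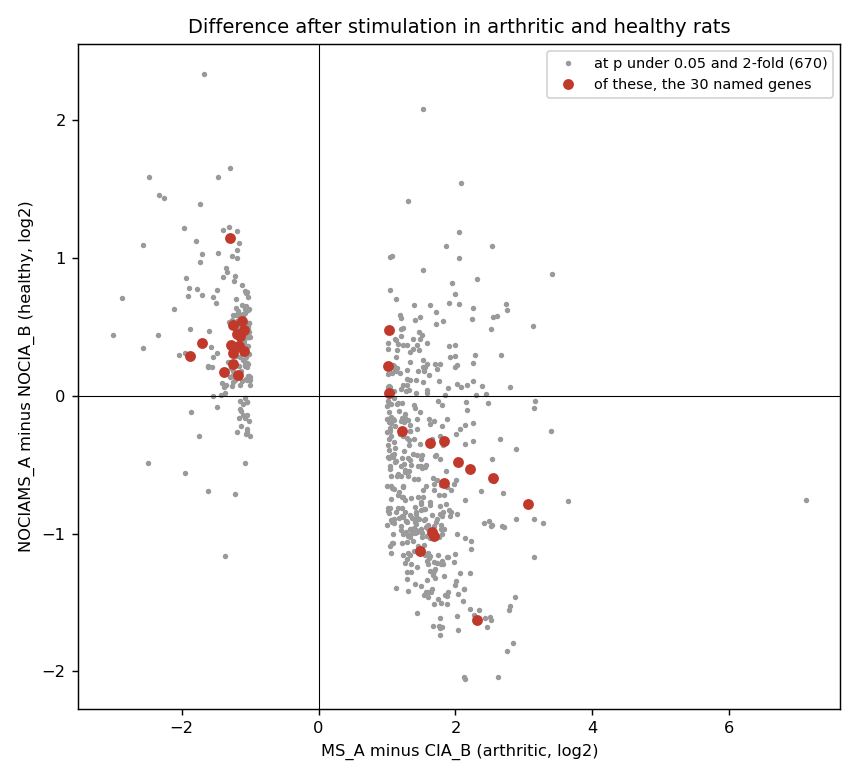
Each of the 670 probe sets at an unadjusted p under 0.05 and 2-fold by its log2 difference in arthritic rats (MS_A minus CIA_B, horizontal axis) and in healthy rats (NOCIAMS_A minus NOCIA_B, vertical axis); red points are the 30 best-ranked genes. Most higher probe sets lie below the horizontal line (356 of 475) and most lower ones above it (167 of 195), with 319 and 126 without NOCIA_B replicate 3, and the point at 7.12 is Itgal.

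The size of these differences was not even over the arrays. Of the 475 higher probe sets MS_A replicate 1 was the MS_A array nearest to CIA_B in 300, replicate 2 in 64 and replicate 3 in 111, and of the 195 lower ones in 137, 28 and 30. Against the mean of CIA_B, 1022, 1901 and 1547 probe sets lay more than 1 above and 499, 956 and 1297 more than 1 below on MS_A replicates 1, 2 and 3. Of 178 probe sets followed by name, the difference became over 1.5 times smaller in 17 without CIA_B replicate 1, in 16 without CIA_B replicate 2, and in 7, 11 and 9 without MS_A replicates 1, 2 and 3.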

How the data were processed

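RNA of blood mononuclear cells, kept and extracted as 1 batch, was hybridised to Affymetrix rat 230 2.0 arrays. The deposited values are MAS5 signal intensities (arbitrary linear units), which the authors computed per array with mas5 of the Bioconductor package affy (version not given in the sources used here). They scaled each array to a trimmed mean of 500, 2% being left out at each end, as the files bear out. MAS5 sets no common distribution over arrays, and dim signals vary most on the log2 scale. Of 31099 probe sets 57 controls were left out, and 18515 whose signal exceeded the median of its array on 2 or more arrays were tested on log2 values with limma 3.58.1 in R 4.3.3, using 1 mean per group over all 14 arrays, equal weights and Benjamini-Hochberg adjustment. Counts at the study's thresholds (2-fold with an unadjusted p of 0.05) are given too. The study also removed probe sets by MAS5 detection calls, which were not applied here, so these counts are not its own calls. The fit was tested on simulated data first. No column of the table was left unused (0). No 2 arrays were duplicates, and the number of arrays limits the precision. The labels do not say that arrays are separate animals, so tests measure the spread between arrays.

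Symbols came from GEO's platform annotation, with 20826 probe sets of 1 symbol, 436 of several and 9780 of none. A gene took its probe set of highest mean signal (10107 genes). Named were up to 15 genes per direction, the lowest p first, at the study's thresholds, without overlap and with a mean log2 signal in the higher group over 7.60 (60th percentile), then up to 4 members per list with the lowest p, defining markers and the genes the study speaks of. Other genes were named after their values were seen. Members, rules and lists (37 written here, 7 of the study and 4 added after values were seen) were chosen with earlier results of these data known. Adora3 was not analysed here. Results of 2 of the lists are not reported here. Promoters are RefSeq sequences of assembly GRCr8. Alternatives were quantile normalization, other filters, an offset of 16, array weights, the compared arrays alone, no moderation, the replicate number as a block, the mean over probe sets of a gene and leaving out each array.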

Additional observations from a re-analysis of the deposited data

How the results depend on the processing

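Genes without overlap cannot turn sign when 1 array is left out. Other filters, no moderation and the compared arrays alone leave the difference as it is. A low count of turned signs was thus in large part set by the choice of genes and does not measure robustness. Of 4088 values of 178 probe sets followed by name 9 turned sign. These were Hbb with the replicate block (0.10) and, when 1 array was left out, Pf4 (-0.026 to 0.53), Alas2 (-0.53 to 1.24), Adora2a (-0.22 to 0.54), Gjb2 (-0.28 to 0.59), S100a8 (-0.77 to 0.057) and S100a9 (-0.61 to 0.012); apart from Hbb, all of these overlapped between the groups in the full data. The count of probe sets past the adjusted test (0) was 1 with no filter (Nfia, 3.96), 1 in the fit of the compared arrays alone (Itgal), 670 by the study's thresholds, and 0 to 4 when 1 array was left out: without CIA_B replicate 1 it was 4, among them Col10a1 (4.12) and Foxl2 (3.85), and without CIA_B replicate 2 it was 2, among them Elfn2 (5.36). Higher probe sets at the study's thresholds (475) numbered 942 with no filter, 858 with array weights, 723 with the compared arrays alone, 284 without moderation and 267 to 654 when 1 array was left out, 267 without MS_A replicate 2 and 315 without CIA_B replicate 1. Lower ones (195) numbered 429 with no filter, 362 with array weights and 111 to 524 when 1 array was left out, 111 without CIA_B replicate 1 and 524 without MS_A replicate 1. The difference between arthritic and healthy changes (0) had 1651 with array weights and 0 to 980 when 1 array was left out, 980 without NOCIA_B replicate 1 and 1 without CIA_B replicate 1. The cause of these shifts was not tested. Of 48 list medians 13 turned sign in some setting, those of plasma cell, NK, neutrophil, tissue, MHC class I and II, Toll-like receptor, immediate early, cell cycle, S100, oxidative phosphorylation, early healing and study-named genes.

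With the replicate number as a block the counts were 0, 396 higher, 148 lower and 0 for the difference between changes, and it changed no call of these. Of 26 pairs with the same number 10 had deviations correlated over 0.1. The mean correlation was 0.028 for pairs of the same number and -0.015 for pairs of different numbers. The labels do not say that the numbers pair the arrays, and whether they go with a shared step of handling was not tested. Without NOCIA_B replicate 3 and MTXMS_A replicate 3, a setting added after the data were seen, 653 were higher and 255 lower. Groups of 3 and 2 arrays limit what single genes can show. Signals near the array median of 104 to 131 or under it are the least precise.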

Other observations

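Genes of innate defence differed by small amounts. Of 28 interferon-stimulated genes 23 were above 0, with a median of 0.29, and 4 were higher without overlap (14.3%, under the 17.5% of all genes), 0 of them at the thresholds. The antiviral GTPase Mx1 had 2881, 3181 and 2988 in MS_A and 2165 and 2667 in CIA_B (0.33 ± 0.32), the interferon transducer Stat2 had 906, 1032 and 1241 in MS_A and 724 and 869 in CIA_B (0.40 ± 0.33), Parp12 had 485, 522 and 766 in MS_A and 363 and 357 in CIA_B (0.69 ± 0.37), and the RNA sensor Dhx58 had 135, 178 and 207 in MS_A and 129 and 60.2 in CIA_B (0.95 ± 0.49). The median was 0.19 in healthy rats. Of 23 Toll-like receptor and NF-kB genes 11 were above 0 (median -0.03). Higher without overlap were 5 (21.7%, near the 17.5% of all genes) and lower 3 (13%, under the 19.6% of all genes). The receptors of single-stranded RNA were higher without overlap: Tlr7 had 389, 408 and 626 in MS_A and 283 and 258 in CIA_B (0.78 ± 0.41), and Tlr8 had 863, 1706 and 1348 in MS_A and 488 and 809 in CIA_B (1.00 ± 0.49).

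Stress genes differed one by one more than as lists. Of 22 heat shock genes 16 were below 0 (median -0.13), yet the inducible Hspa1a had 139.9, 451 and 161 in MS_A and 78.3 and 108 in CIA_B (1.24 ± 0.53), highest on replicate 2. Among immediate early genes 15 of 26 were above 0 (median 0.09, and -0.09 without MS_A replicate 1), and Atf3, a stress-induced repressor, had 205, 253 and 426 in MS_A and 147 and 74.9 in CIA_B (1.42 ± 0.63). Lama1, a laminin chain of the study's early healing list, had 144, 269.5 and 109 in MS_A and 52.4 and 78.1 in CIA_B (1.34 ± 0.53).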
